A study of Mus musculus with 4 samples.

Results

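The telomere-proximal ends of the mouse autosomes were examined for binding of 2 cohesin subunits in spermatocytes. For each of the 19 autosomes the end was set at the largest summit position of either subunit, and all summits less than 5000000 bp before it were taken, whatever their height. This gave 603 of 16279 autosomal SMC3 summits and 350 of 9522 autosomal SMC1B-LAP summits, together 953 of 25801. The choice of members used positions alone and no score. It does fix 1 summit at each end, since the last summit defines it. That summit belonged to SMC3 on 12 autosomes and to SMC1B-LAP on 7.

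Cohesin is a ring of SMC proteins that holds sister chromatids together and, in meiosis, forms the base of the chromosome axis. SMC3 is present in every cohesin ring, whereas SMC1B replaces SMC1A in part of the rings of meiotic cells. Mouse chromosomes are telocentric, so coordinates run from the centromere at one end to the distal telomere at the other. In meiotic prophase the telomeres attach to the nuclear envelope, and SMC1B is known to be needed for intact telomeres in spermatocytes. The telomere repeats themselves lie outside the assembled sequence that such lists cover, so the members are sites next to the telomere and not on it.

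The data come from ChIP-seq, the sequencing of immunoprecipitated chromatin, on GFP-sorted, formaldehyde-fixed testis cells of C57BL/6 mice. All 4 libraries of the series come from animals with Smc1b tagged at its N terminus with LAP, a tag that holds GFP. One library was precipitated with a rabbit antibody to SMC3 and one with a goat antibody to GFP, which pulls down SMC1B-LAP, and each has an input that was not analysed here. With 1 library per subunit nothing has a replicate check. The spread given below is between autosomes of the same library, and the p-values measure only that spread. Cells were pooled after sorting, the labels give no age, and summit lists hold no expression values with which the cell type could be checked. The lists contain no read counts, so the depth is unknown.

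Each member is a single base of the mm9 assembly with a score, which is the −log10 of the authors' q-value. Lists at a false discovery rate (FDR) of 0.1 were used for both subunits. No sequence is shown, because no mm9 genome was used here.

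The density of summits in the last 5 Mb did not differ detectably from that of the rest of the same autosomes, for either subunit. SMC3 had 3.60 summits per Mb at the lowest end (chromosome 7), a median of 6.00 and 10.2 at the highest (chromosome 18). The rest of the autosomes had from 5.57 to 7.91 SMC3 summits per Mb, with a median of 6.71. The ends thus reached both below and above the whole range of the rest. Each end spans only 5 Mb and each rest 53.3 to 189 Mb, so the wider range is not in itself a trait of the ends. Among windows of 5 Mb the SD of the SMC3 density relative to the autosome was 0.286 in the ends and 0.319 elsewhere. The mean of the ends was 6.35 ± 1.94 (SD, n = 19 autosomes) and that of the rest 6.71 ± 0.576 SMC3 summits per Mb. The mean difference, end minus rest, was -0.36 per Mb (95% interval -1.32 to 0.617), and 12 of the 19 ends were lower in SMC3 (exact two-sided sign-flip permutation p = 0.443, Benjamini-Hochberg adjusted over 8 tests 0.752).

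SMC1B-LAP had a wider relative spread between ends. Its ends had 1.60 summits per Mb on chromosome 4, the lowest, a median of 2.80 and 7.20 on chromosome 17, the highest. The rest had 3.08 to 5.02 per Mb with a median of 3.95. The means were 3.68 ± 1.89 in the ends and 3.93 ± 0.435 in the rest, a difference of -0.24 per Mb (95% interval -1.16 to 0.686). Of the 19 ends 13 were lower (p = 0.583 in the exact sign-flip permutation, adjusted 0.777). Most ends were poorer than the rest in SMC1B-LAP, and a few were much richer, which brought the mean close to that of the rest. The median SMC1B-LAP density, relative to the mean of the autosome, was 0.734 in the ends and 0.922 over all windows of 5 Mb. In the windows next inwards it was 0.803, 0.723, 0.890 and 0.885, so a low median was not particular to the ends. For SMC3 it was 0.895 in the ends, 0.938, 0.877, 0.839 and 0.908 next inwards and 0.970 over all windows. The first 7 Mb at the centromere side held 8.14 ± 3.38 SMC3 and 6.18 ± 4.27 SMC1B-LAP summits per Mb, and their difference from the distal ends was not tested. Leaving these first 7 Mb out of the rest did not bring either density past the test.

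**Figure D1:**
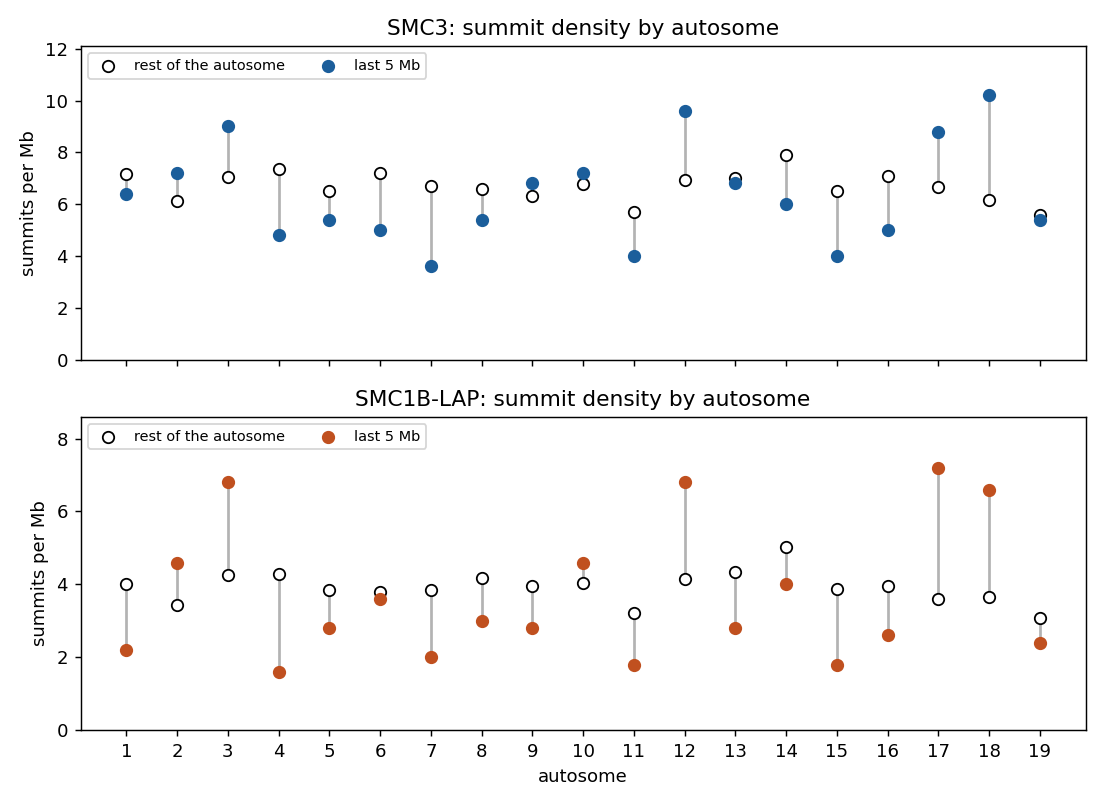
Summits per Mb in the last 5 Mb (filled circles) and in the rest (open circles) of each autosome, SMC3 above and SMC1B-LAP below, with a grey line joining the 2 values of an autosome. The ends of chromosomes 3, 12, 17 and 18 lie above the rest in both panels and those of chromosomes 4, 7 and 15 well below it.

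The ends of some autosomes were rich and those of others poor, and largely the same ends were rich or poor in both subunits. The richest ends of SMC3, relative to the rest of the autosome, were those of chromosome 18, with 1.66 times the density (95% exact interval 1.22 to 2.21), chromosome 12, with 1.38 times (1.01 to 1.85), and chromosome 17, with 1.32 times (0.951 to 1.80). For SMC1B-LAP they were those of chromosome 17, with 1.99 times (1.37 to 2.82), chromosome 18, with 1.80 times (1.22 to 2.59), and chromosome 12, with 1.63 times (1.12 to 2.32). The same 3 autosomes thus led both lists. Of the 36 SMC1B-LAP summits in the chromosome 17 end, 0 scored 3 or more, against 8.57% in its rest. Only 5.56% of them had an SMC3 summit within 500 bp, against 18.4% in its rest. In the ends of chromosomes 18 and 12, 15.2% and 8.82% of the SMC1B-LAP summits scored 3 or more, against 8.58% and 8.49%. The poorest ends were also shared by both subunits. For SMC3 they were those of chromosome 7, with 0.536 times (0.316 to 0.852), chromosome 15, with 0.614 times (0.373 to 0.957), and chromosome 4, with 0.653 times (0.417 to 0.977). For SMC1B-LAP they were those of chromosome 4, with 0.374 times (0.161 to 0.741), chromosome 15, with 0.464 times (0.210 to 0.890), and chromosome 7, with 0.519 times (0.247 to 0.961). These intervals cover counting error only and treat summits as independent, and they are not adjusted for the number of autosomes.

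Both subunits were lower in the end on 12 autosomes and higher on 6. Chromosome 9 alone had more SMC3 and less SMC1B-LAP than its rest. Over the 19 autosomes the log2 ratios of the 2 subunits had a Pearson's r of 0.86 and a Spearman's rho of 0.80. Without chromosomes 18 and 7, the farthest from the median of SMC3, r was 0.83. This is a description of 19 regions of the same genome in 2 libraries from the same kind of cells. It is not special to the ends in kind, since the relative densities of the 2 subunits had an r of 0.68 over 454 other 5 Mb windows, against 0.88 over the 19 end windows, and the difference between these was not tested. The subunits did not differ detectably in how the ends compared with the rest. The log2 ratio of SMC1B-LAP minus that of SMC3 averaged -0.09 (95% interval -0.28 to 0.09, exact sign-flip permutation p = 0.307, adjusted 0.752).

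**Figure D2:**
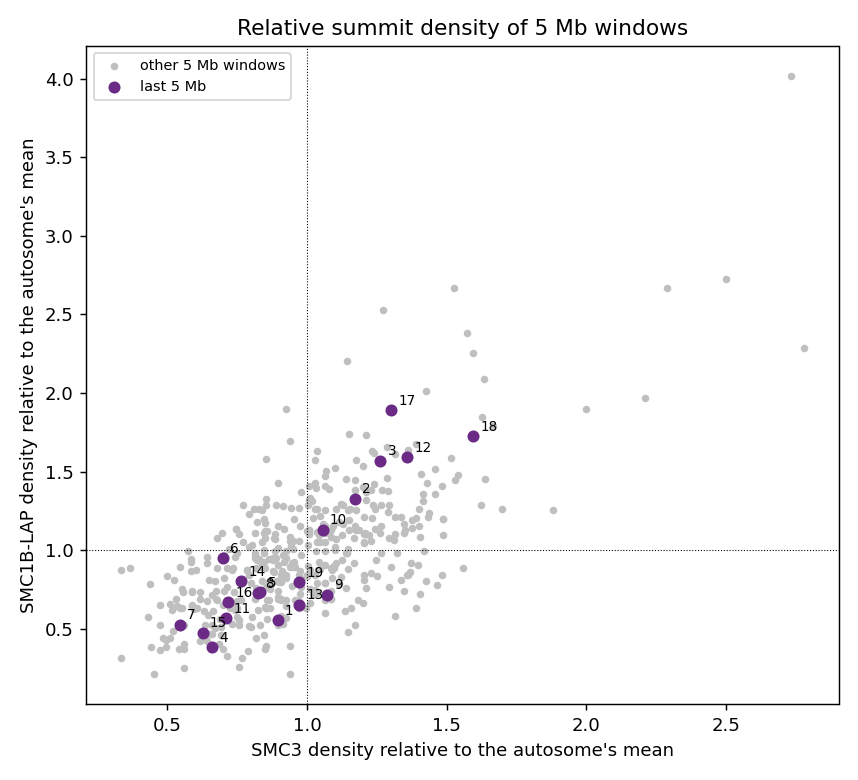
Density of SMC3 (x axis) and SMC1B-LAP (y axis) in windows of 5 Mb counted back from the end, each divided by the mean of its autosome; purple points are the 19 end windows with the chromosome number, grey points the 454 others. The end windows run along the same diagonal as the others, from chromosomes 4, 7 and 15 at the lower left to chromosomes 17 and 18 at the upper right.

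The ends were then set among all windows of the same length. Of 473 windows of 5 Mb, 4.44% had at least 1.5 times the SMC3 density of their autosome and 13.1% had 1/1.5 of it or less. Among the 19 ends, 1 was that rich (chromosome 18) and 3 that poor (chromosomes 4, 7 and 15). For SMC1B-LAP the shares over all windows were 8.03% and 20.3%. Here 4 ends were that rich (chromosomes 3, 12, 17 and 18) and 6 that poor (chromosomes 1, 4, 7, 11, 13 and 15). The SMC3 counts are close to the shares over all windows, and the SMC1B-LAP counts are larger shares of the 19 ends than of all windows, without a test. The end was the fullest window of its autosome for SMC1B-LAP on chromosomes 3, 17 and 18 and the emptiest on chromosome 15. On chromosomes 4 and 19 it tied as the emptiest with 2 other windows each, at 8 and 12 summits. For SMC3 it was the fullest on chromosome 18 and the emptiest on chromosome 15. The SD of the relative SMC1B-LAP density was 0.462 over the 19 ends and 0.410 over the other windows. For SMC3 these values were 0.286 and 0.319.

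Within the last 5 Mb the summits were not spread evenly, and SMC1B-LAP was densest in the last Mb. From the end inwards the 5 bins of 1 Mb held 7.42 ± 3.32, 5.47 ± 2.89, 7.0 ± 3.40, 5.68 ± 2.77 and 6.16 ± 4.62 SMC3 summits. The same bins held 5.58 ± 3.50, 2.95 ± 2.17, 3.37 ± 3.13, 2.63 ± 2.11 and 3.89 ± 4.24 SMC1B-LAP summits. Across the boundary at 5 Mb the densities changed little, from 6.16 to 6.79 for SMC3 and from 3.89 to 3.47 for SMC1B-LAP in the next Mb. In the last Mb SMC1B-LAP had between 0 (chromosome 11) and 12 summits (chromosome 3), and it exceeded the rest of the autosome on 12 of 19.

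The last Mb was compared with the rest after this had been seen. The difference for SMC1B-LAP was 1.67 per Mb (exact sign-flip permutation p = 0.0479, adjusted 0.384), and 1.31 per Mb without the summits that set the ends (p = 0.114, adjusted 0.553). For SMC3 the difference was 0.73 per Mb, and 0.10 without those summits. Neither subunit passed the adjusted test. The last 100 kb alone, without the summits that set the ends, held 22 SMC3 and 19 SMC1B-LAP summits, or 11.6 and 10.0 per Mb. The next 100 kb held 11 and 7. Of the 19 SMC1B-LAP summits, 8 came from a single crowded window, chr2:181600001-181700000. Even with the summits that set the ends, only 12 of the 19 autosomes had an SMC1B-LAP summit in the last 100 kb. For SMC3 it was 18.

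**Figure D3:**
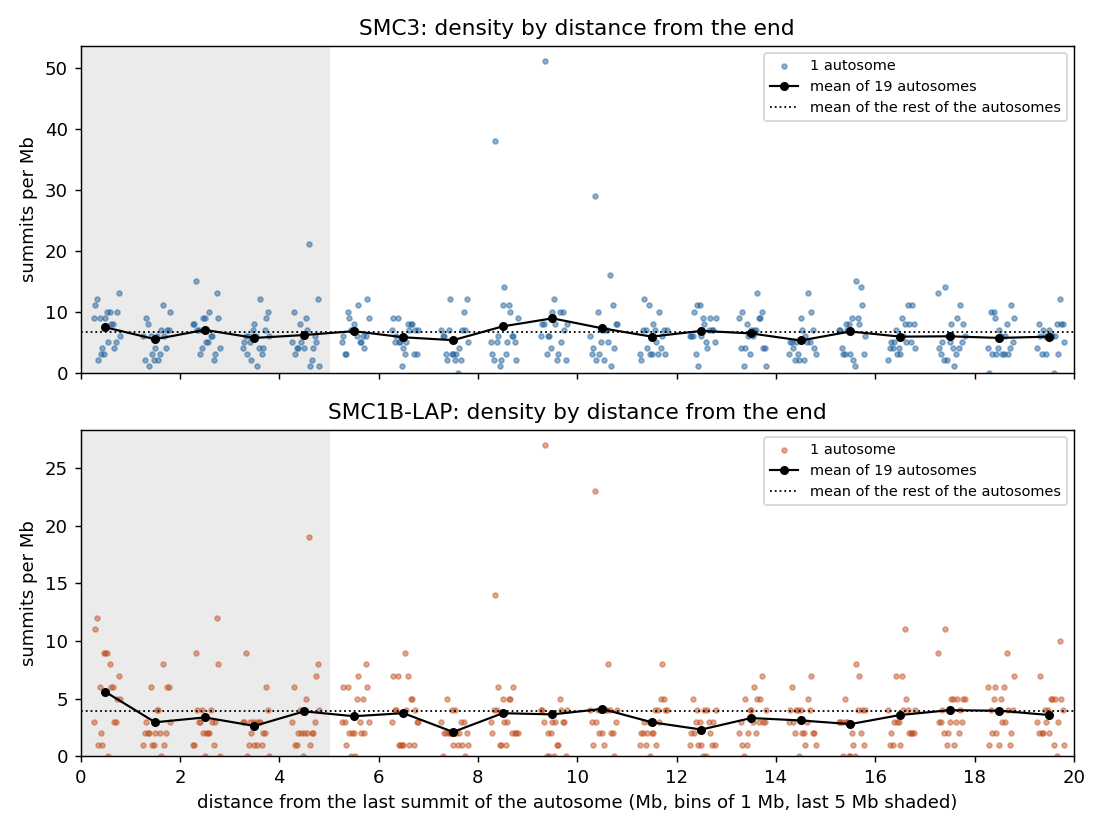
Summits per Mb in bins of 1 Mb by distance from the last summit of the autosome, SMC3 above and SMC1B-LAP below; each coloured point is 1 autosome, black points are means of 19 autosomes and the dotted line is the mean of the rest. The first SMC1B-LAP bin, at 5.58 per Mb, stands above the dotted line at 3.93, and single autosomes with 21 SMC3 and 19 SMC1B-LAP summits stand out between 4 and 5 Mb.

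The crowded Mb between 4 and 5 Mb from the end belonged to chromosome 12, with 21 SMC3 and 19 SMC1B-LAP summits. Its fullest 100 kb windows were chr12:116700001-116800000 with 6 SMC3 and 2 SMC1B-LAP summits and chr12:116600001-116700000 with 1 and 5. Apart from this Mb the fullest was on chromosome 3 between 2 and 3 Mb for SMC3, with 15 summits. The fullest 100 kb window of SMC1B-LAP, which tied with the first chromosome 12 window for SMC3, lay at the very end of chromosome 2, at chr2:181600001-181700000, and stopped 0.0403 Mb short of the last summit. It held 6 SMC3 and 8 SMC1B-LAP summits where the mean of the chromosome is 0.614 and 0.346 per window. The third place was tied for both subunits. For SMC3, chr1:194400001-194500000, chr2:179000001-179100000 and chr13:119200001-119300000 each held 5 SMC3 summits, with 1, 0 and 0 SMC1B-LAP summits. For SMC1B-LAP, chr3:156600001-156700000 and chr12:116800001-116900000 each held 4 SMC1B-LAP and 3 SMC3 summits. Of the 23 windows of the autosomes that were densely filled with SMC3, none lay in the ends. Of the 15 such windows of SMC1B-LAP, 1 did, the chromosome 2 window. The ends span 95 Mb and the rest 2319 Mb, so by length alone few of either set would lie in the ends. Densely filled means that the Poisson upper tail, given the mean of the chromosome, stayed under 0.05 after Bonferroni correction over 24153 windows.

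The share of high scores did not differ detectably between ends and rest. The highest scores of both lists lay outside the ends, which hold only 603 of 16279 SMC3 and 350 of 9522 SMC1B-LAP summits. With so small a part of the lists, a maximum outside the ends says little about them. The median SMC3 score was 2.67 in the ends and 2.52 in the rest, and the highest 29.7 against 116. SMC1B-LAP had a median of 1.07 in both and a maximum of 35.8 against 85.2. A score of 3 or more, the FDR 0.001 of the strict SMC3 list, was reached by 252 of 603 SMC3 members, or 41.8% (95% exact interval 37.8% to 45.8%), and by 40.8% (40.0% to 41.6%) in the rest. Over autosomes the shares averaged 42.2% ± 5.91 and 40.9% ± 1.87, with a difference of 1.30 percentage points (95% interval -1.91 to 4.48, exact sign-flip permutation p = 0.401, adjusted 0.752). For SMC1B-LAP 32 of 350 members reached 3, or 9.14% (6.34% to 12.7%), against 9.19% (8.61% to 9.80%). The averages over autosomes were 9.32% ± 9.61 and 9.20% ± 1.54 (difference 0.121 points, 95% interval -4.51 to 4.90, exact sign-flip permutation p = 0.959, adjusted 0.959). Scores of 10 or more were held by 46 SMC3 members, or 7.63% against 8.09% in the rest, and by 3 SMC1B-LAP members, or 0.857% against 1.49%.

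The highest SMC3 member, at position 194491133 of chromosome 1, scored 29.7 and ranked 192 among all autosomal SMC3 summits. A second one of the 5 highest lay close by at 194491781 with a score of 24.4, and both had the same SMC1B-LAP summit as nearest neighbour, at 194491416 with a score of only 1.34. The other 3 were on chromosome 10 at 125163414 (28.2) and on chromosome 18 at 86359956 (25.8) and 87810609 (23.4). The last of these tied for its place with an SMC3 summit at 89885553 of chromosome 18, which had no SMC1B-LAP summit within 500 bp, and was taken because it comes first along the chromosome. The chromosome 10 summit had an SMC1B-LAP summit 3 bp away, and the first of chromosome 18 had none within 14594 bp.

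The highest SMC1B-LAP member lay at position 121157862 of chromosome 12, only 0.0765 Mb from the last summit. It scored 35.8 and ranked 19 among all autosomal SMC1B-LAP summits, while the SMC3 summit 12 bp away scored 3.37. The second, at 87810619 of chromosome 18, scored 27.4 and stood 10 bp from an SMC3 summit of 23.4, the one in that tie. The third, at 150554324 of chromosome 7, scored 16.3 with no SMC3 summit within 207369 bp. The remaining 2 of the 5 highest were on chromosome 4 at 152647076 (7.98, SMC3 at 18 bp) and on chromosome 9 at 123782261 (7.41, nearest SMC3 at 60825 bp). The 5 highest SMC1B-LAP sites of the ends thus came with a strong SMC3 summit, with a weak one or with none listed nearby at FDR 0.1. A missing summit does not show that SMC3 was absent. Ranked on both scores together, the 5 leading pairs lay, by their SMC3 summits, at 87810609 and 86235750 of chromosome 18, 152647094 of chromosome 4, 125163414 of chromosome 10 and 56367740 of chromosome 19. Their summits were 3 to 18 bp apart.

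**Figure D4:**
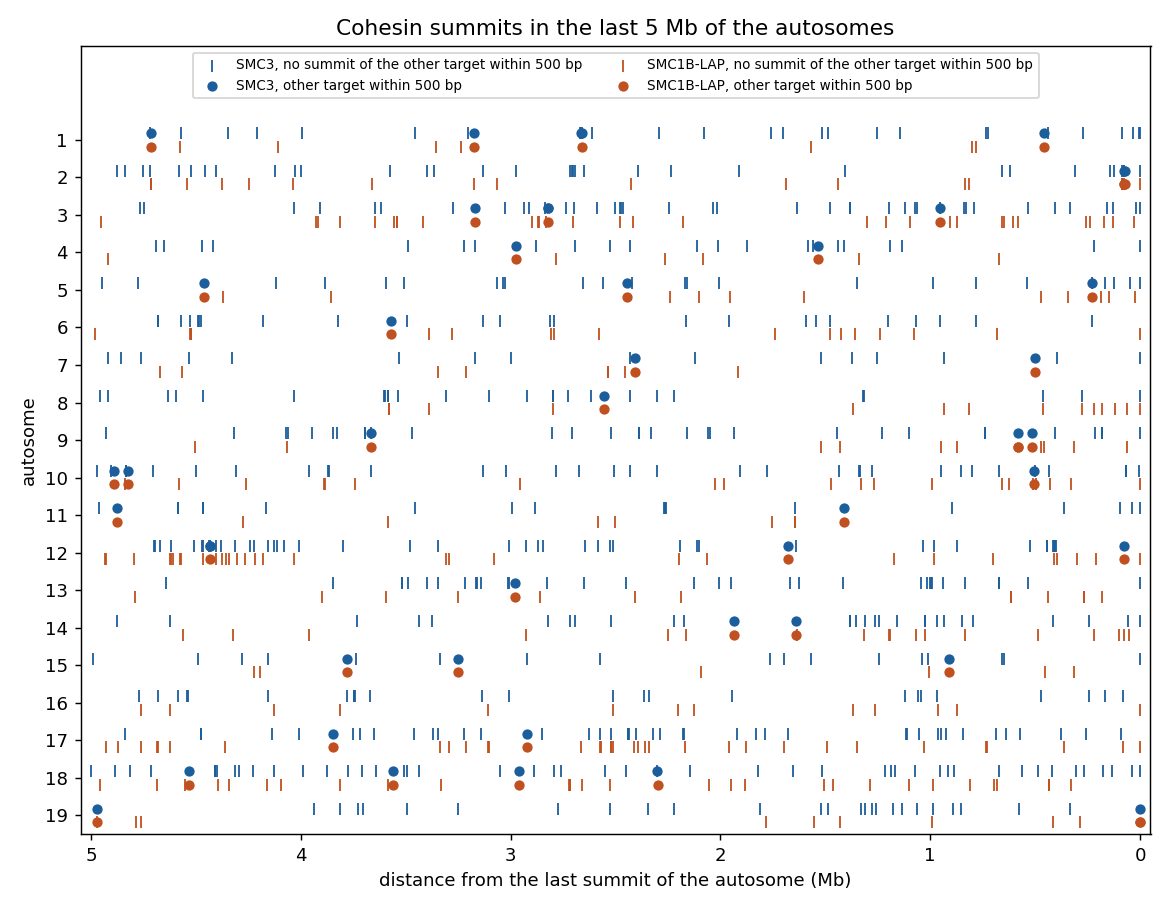
All 953 member summits by distance from the last summit of the autosome (x axis, Mb) and autosome (y axis), SMC3 in blue and SMC1B-LAP in orange; circles mark summits with the other subunit within 500 bp and bars those without. The 46 shared summits of each subunit are scattered over the whole 5 Mb of 18 autosomes, and chromosome 16 has none.

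Most members of either subunit stood alone, as elsewhere in the genome. Of the 350 SMC1B-LAP members, 46 had an SMC3 summit within 500 bp, or 13.1% (95% exact interval 9.79% to 17.1%), against 14.02% (13.3% to 14.7%) in the rest. Of the 603 SMC3 members, 46 had an SMC1B-LAP summit that close, or 7.63% (5.64% to 10.0%), against 8.15% (7.73% to 8.59%). The densities alone, multiplied by the 1001 bp searched, would give 0.635% and 0.369% in the ends, so the shares were far above that level there too. That level takes summits as evenly spread. Both subunits crowded in some of the same windows, so it is not a full measure of chance. By autosome the SMC1B-LAP share ran from 0 on chromosome 16 over a median of 13.0% to 36.4% on chromosome 1, and in the rest from 10.4% to 18.4%. The mean over autosomes was 15.9% ± 10.4 in the ends and 14.1% ± 1.84 in the rest, higher in the ends although the pooled share was lower, and higher in only 8 of the 19 (difference 1.87 points, 95% interval -3.50 to 7.27, exact sign-flip permutation p = 0.470, adjusted 0.752). For SMC3 the means were 7.80% ± 3.91 and 8.17% ± 1.10 (difference -0.369 points, 95% interval -2.46 to 1.72, exact sign-flip permutation p = 0.713, adjusted 0.815). Neither share differed detectably between ends and rest at this distance.

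Counted as sites, the ends held 43 mutual nearest pairs within 500 bp and the rest 1257. This is 0 to 4 pairs per end, with a median of 2. The means were 0.453 ± 0.209 and 0.539 ± 0.0882 pairs per Mb, a difference of -0.0864 (95% interval -0.204 to 0.0301, exact sign-flip permutation p = 0.139, adjusted 0.752).

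A difference appeared when only closely coincident summits were counted. Within 100 bp the ends held 29 pairs and the rest 1050. Chromosome 16 had 0 such pairs in its end, chromosomes 12 and 18 had 3 each, and the other 16 had 1 or 2. The means were 0.305 pairs per Mb in the ends and 0.453 in the rest, a difference of -0.148 (95% interval -0.231 to -0.0638). The end was below the rest on 16 of 19, the exceptions being chromosomes 2, 12 and 18 (exact sign-flip permutation p = 0.00179, adjusted over the 8 tests at this distance 0.0143). This count of autosomes is coarse, since 1 pair is 0.2 per Mb. An end with 2 pairs already lay below the rest on chromosomes 1, 4, 10, 11, 15 and 17. The share of SMC3 summits with SMC1B-LAP within 100 bp was 4.97% in the ends and 6.75% in the rest, also lower on 16 of 19 (exact sign-flip permutation p = 0.0122, adjusted 0.0490). This second call rests largely on the same pairs and was lost when any 1 autosome other than 4, 11 or 15 was left out (adjusted exact permutation p up to 0.0974), with the difference between -2.09 and -1.50 points. The share of SMC1B-LAP summits with SMC3 within 100 bp, 9.92% against 11.6%, did not pass (adjusted exact permutation p = 0.590). The 100 bp distance was 1 of 3 alternatives to 500 bp, and the adjustment does not cover the choice among them. Against the adjacent 5 Mb alone, with 0.411 pairs per Mb, the difference was -0.105 (exact sign-flip permutation p = 0.270), and without the SMC1B-LAP summits at the tied score 1.07 it was -0.0752 (p = 0.134). The 5 Mb windows between 5 and 50 Mb from the end averaged from 0.379 to 0.579 such pairs per Mb.

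By distance, pairs were sparser in the ends at the closest range and denser beyond 100 bp, the latter on few pairs. The densities by distance were not tested. At 0 to 50 bp there were 27 pairs in the ends, 0.284 per Mb, against 0.432 per Mb in the rest. At 51 to 100 bp there were 2 in the ends, and the density was 0.0211 per Mb in both. At 101 to 200 bp there were 6, or 0.0632 against 0.0289 per Mb, and at 201 to 500 bp 8, or 0.0842 against 0.0604 per Mb. Pairs within 50 bp made up 62.8% of the pairs in the ends (27 of 43, 95% exact interval 46.7% to 77.0%) and 79.6% in the rest (1001 of 1257, 77.3% to 81.8%). Over the 18 autosomes with a pair in the end this share was lower in the end on 11 and higher on 7 (exact sign-flip permutation p = 0.125), a comparison made after the values were seen.

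By score, the shares of SMC1B-LAP summits with a partner lay lower in the ends at some levels and higher at others. At scores of 1 to 1.5, 10 of 218 SMC1B-LAP members had SMC3 within 500 bp, or 4.59% (2.22% to 8.27%), against 8.14% (7.44% to 8.89%) in the rest. Of the 179 members at the tied score, 6 were shared, or 3.35%, against 7.24% of 4338 in the rest. At scores of 2 to 3 the order was the opposite, with 33.3% (17.96% to 51.8%) of 33 members against 20.1% (17.6% to 22.8%). At 3 to 5 the shares were 35.3% and 33.5%, and at 5 to 10 they were 50% and 49.3%. For SMC3, 5 of the 87 members at its own most common score, 1.37, were shared, or 5.75%, against 2.27% in the rest. These shares by score are descriptions without a test.

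**Figure D5:**
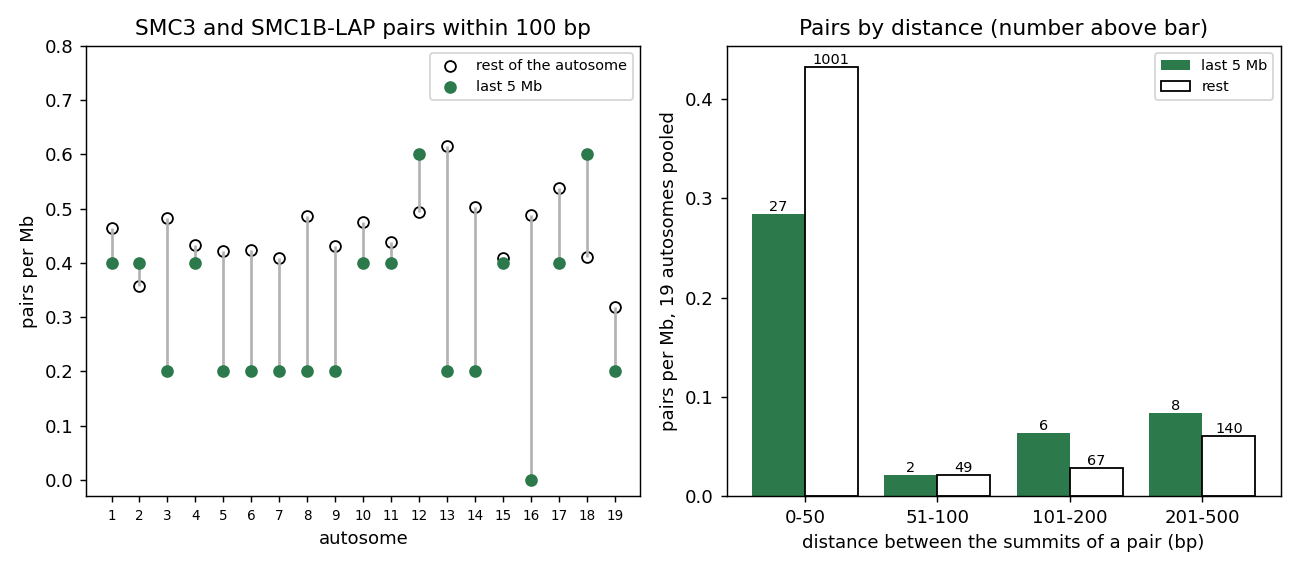
Left, mutual SMC3 and SMC1B-LAP pairs within 100 bp per Mb in the last 5 Mb (green) and in the rest (open circles) of each autosome; right, pairs per Mb pooled over 19 autosomes by the distance between the 2 summits, with the number of pairs above each bar. On 16 of 19 autosomes the green circle lies below the open one, and the pooled gap is widest at 0 to 50 bp.

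The summit names carry running numbers that rise with position on every autosome and leave gaps. They are read here as the numbering of a longer call with an unstated cutoff, so that differences between them count candidates, most of which did not reach FDR 0.1. The candidate densities and shares that follow hold only under that reading. On average candidates were slightly denser in the ends, at 40.3 ± 4.54 against 37.7 ± 1.31 per Mb for SMC3 and 643 ± 64.6 against 612 ± 20.58 per Mb for SMC1B-LAP. For each subunit the candidate density was lower in the end on 6 of 19 autosomes, and these differences were not tested. The share of candidates that passed FDR 0.1 averaged 15.8% ± 5.85 in the ends and 17.8% ± 1.49 in the rest for SMC3. For SMC1B-LAP it was 0.553% ± 0.240 and 0.641% ± 0.0696. It was lower in the end on 13 of 19 autosomes for each subunit.

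At single ends the SMC3 candidates and summits could go opposite ways. The end of chromosome 18, richest in SMC3 summits, had the fewest SMC3 candidates of all ends, 32.3 per Mb against 35.1 in its rest, and 30.5% of them passed against 17.5%. The end of chromosome 7, poorest in SMC3 summits, had 47.0 candidates per Mb against 38.6, of which 7.59% passed against 17.4%. For SMC1B-LAP the extreme ends went the same way in both. The richest, chromosome 17, had 753 candidates per Mb against 598, and the poorest, chromosome 4, had 534 against 596. Over the 19 autosomes the log2 candidate ratio and the log2 summit ratio had r = -0.35 for SMC3 and r = 0.66 for SMC1B-LAP. Neither correlation was tested. Each pair of ratios comes from the same library and the summits are among the candidates. Read coverage, mappability and unsequenced gaps, which lie in the extents used here, were not measured, and their part in the densities was not tested.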

How the data were processed

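The series holds 4 ChIP-seq libraries, 1 per target and 1 input each; the 2 ChIP libraries were analysed. Bowtie2 0.12.8, MACS2 and mm9 are named in the submitters' processing notes. How the input was used and whether duplicate reads were removed is not given in the sources used here. The deposited score of each 1-base summit is a −log10 q-value of the authors' peak caller, a reading checked on the lowest value of each list, and the lists were deposited at an FDR of 0.1 and 0.001 (SMC3) and of 0.1 and 0.5 (SMC1B-LAP).

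From these lists summits, shares and mutual nearest pairs were counted per autosome in the last 5 Mb and in the rest, which runs from the first summit of either list. Differences were tested with exact two-sided sign-flip permutations over 19 autosomes (smallest possible p 3.81e-06), adjusted by Benjamini-Hochberg over 8 tests; intervals of differences invert this test. The tested log2 ratio between subunits used a pseudocount of 0.5, and the log2 ratios that were correlated used none. Intervals of shares and of single density ratios are exact (Clopper-Pearson). Procedures were tested on simulated summits placed at random along each autosome, without the crowded windows of the real lists. Sites named are the 5 highest members and pairs, the 3 fullest 100 kb windows and the 3 richest and poorest ends. Members, lists and tests were chosen with earlier results of these data known. The gene table at hand is for a later build, so no genes are assigned. Python 3.11.15, numpy 2.4.6, pandas 2.3.3, scipy 1.17.1 and matplotlib 3.10.9 were used.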

Additional observations from a re-analysis of the deposited data

How the results depend on the processing

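None of the 8 exact sign-flip permutation tests passed at the main settings (0 also at an unadjusted p under 0.05). Among 245 values under alternatives 5 had an unadjusted p under 0.05 and 2 passed the adjusted threshold, both at a distance of 100 bp: -0.148 pairs per Mb and -1.78 percentage points for the share of SMC3 summits with SMC1B-LAP. The pairs within 100 bp kept their sign and an unadjusted exact permutation p of at most 0.00357 with each autosome left out (-0.166 to -0.129 per Mb). By the unadjusted exact permutation p they also passed at 50 and 200 bp, with the last 10 Mb, with the other FDR lists and without densely filled windows, and lost the call with the last 2 Mb (-0.160, p = 0.0749), against the adjacent 5 Mb and without tied SMC1B-LAP scores. These settings were added after the result was seen.

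Differences that turned sign, all end minus rest and none past the adjusted threshold, were these. With the last 2 Mb they were 0.351 SMC1B-LAP summits per Mb, 0.12 for the log2 ratio between subunits and -0.924 points for SMC3 scores of 3 or more. Against the adjacent 5 Mb they were 0.347 SMC1B-LAP summits per Mb, 0.19 for the log2 ratio, -1.96 points for shared SMC1B-LAP, and -2.07 and -2.40 points for high scores of SMC3 and SMC1B-LAP. The share of SMC1B-LAP scores of 3 or more was -0.696 points without densely filled windows, -0.161 with 1 summit per 10 kb, -0.0243 without the summits that set the ends, -0.234 with the list at FDR 0.5 and -0.817 without tied scores. SMC3 high scores were -0.345 points with 1 summit per 10 kb and -0.265 with a score of 5. With SMC1B-LAP at FDR 0.5 the log2 ratio was 0.0457 and shared SMC1B-LAP -0.866 points. Shared SMC1B-LAP was -1.64 points at 100 bp, and shared SMC3 was 0.663 points without tied scores and 0.348 at 1000 bp. With the last 1 Mb, chosen after seeing the data, SMC3 was 0.733 and SMC1B-LAP 1.67 per Mb with a log2 ratio of 0.20, and without the summits that set the ends 0.101, 1.31 and 0.23. The cause of these turns was not tested.

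With each autosome left out, differences ranged from -0.602 to -0.205 (SMC3 per Mb), -0.454 to -0.106 (SMC1B-LAP per Mb), -0.13 to -0.06 (log2 ratio), -0.109 to -0.0598 (pairs per Mb), 0.717 to 2.77 (shared SMC1B-LAP, points), -0.824 to 0.0686 (shared SMC3), 0.668 to 2.10 (SMC3 scores) and -1.36 to 0.754 (SMC1B-LAP scores), with adjusted exact permutation p from 0.407 to 0.998. With 350 SMC1B-LAP and 43 paired members, the intervals leave room for sizeable differences, and without read counts the depth behind them is unknown.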
